A study of Mus musculus with 48 samples.

Results

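Cadps2, Zmynd15, Bex1, Akr1c19 and Gpnmb are 5 genes whose signal was far higher in epidermal stem cells (EpSCs) of aged mice than of young mice. They were chosen for that rise, so their levels between the ages are described here without a test, and a probe set counted as theirs only where it carried exactly 1 gene symbol. Each of the 5 had exactly 1 such probe set, so the values below come from 5 of 28898 single-symbol probe sets, and from 5 of the 12823 genes that passed a limit on dim signal (a mean log2 signal of 3.96). Among those genes Cadps2, Bex1 and Zmynd15 ranked 1, 2 and 3 by the size of the rise, Akr1c19 ranked 8 and Gpnmb ranked 10. The genes between them were Rgs4, Casp1, Igfbp2, Casp4 and Krt6a, and the next one, Procr, rose by 1.46 on the log2 scale, as Gpnmb did.

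The cells came from the epidermis of wild-type female C57B6/J mice, aged (102 to 116 weeks) or young (8 weeks). In each age group 4 mice were used at each of 6 times of day, written as hours of zeitgeber time (ZT0, ZT4, ZT8, ZT12, ZT16 and ZT20), which gives 24 aged and 24 young mice with 1 array each. The measurement was a 1-colour Affymetrix expression array, and the deposited values are log2 signals made with RMA. Signals of different probe sets have no common scale, so only differences and spreads are set side by side between genes.

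The 5 genes do not belong to 1 pathway. Cadps2 encodes a priming factor for the release of dense-core vesicles, best known from neurons and endocrine cells, where it acts beside UNC13 proteins and SNAREs. Zmynd15 encodes a protein with a MYND zinc finger, known in mouse testis as a repressor of transcription in spermatids. Bex1 is a small X-linked gene of the BEX and TCEAL family, named for its expression in brain and also found in progenitor and regenerating cells, whose product binds the neurotrophin receptor p75. Akr1c19 belongs to the aldo-keto reductases of the 1C subfamily, enzymes that reduce ketones and aldehydes, steroids among them, with a nicotinamide cofactor. Gpnmb encodes a transmembrane glycoprotein of melanosomes and lysosomes, abundant in melanocytes and some macrophages, and a target of the MITF and TFE family of transcription factors.

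Of the 5 genes, 4 had an entry in the RefSeq promoter table (GRCm38.p6). The sequences run from 250 bases before the transcript start of that table to 20 bases after it, 5′ to 3′ on the strand of the gene. They are shown because 2 of the genes, Bex1 and Akr1c19, varied together from mouse to mouse, as described further on. The Cadps2 window lies wholly inside the span of its gene (23262773 to 23841175). The Akr1c19 window lies mostly inside the span of its gene (4233503 to 4248361). For Cadps2 and Akr1c19 the start used here is therefore not the outer end of the gene span, and the window may miss other starts. Capitals mark every match to 4 motifs searched on both strands: the E-box CACGTG, the AP-1 site TGANTCA, the core of the antioxidant response element TGACNNNGC and the ROR element motif AGGTCA. The Cadps2 promoter lies at chr6:23839402-23839671 on the minus strand, that of Bex1 at chrX:136215494-136215763 on the minus strand, that of Akr1c19 at chr13:4233490-4233759 on the plus strand and that of Gpnmb at chr6:49036268-49036537 on the plus strand.
Cadps2: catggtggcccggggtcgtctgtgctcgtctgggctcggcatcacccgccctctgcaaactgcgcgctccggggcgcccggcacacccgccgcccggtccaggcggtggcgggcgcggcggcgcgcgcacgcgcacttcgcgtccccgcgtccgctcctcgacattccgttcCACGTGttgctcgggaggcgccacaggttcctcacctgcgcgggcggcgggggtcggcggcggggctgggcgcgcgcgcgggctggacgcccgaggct
Bex1: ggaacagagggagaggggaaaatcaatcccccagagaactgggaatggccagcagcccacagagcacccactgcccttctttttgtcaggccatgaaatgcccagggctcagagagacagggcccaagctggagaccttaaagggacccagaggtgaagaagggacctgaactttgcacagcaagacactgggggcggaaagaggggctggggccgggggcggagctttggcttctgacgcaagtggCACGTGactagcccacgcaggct
Akr1c19: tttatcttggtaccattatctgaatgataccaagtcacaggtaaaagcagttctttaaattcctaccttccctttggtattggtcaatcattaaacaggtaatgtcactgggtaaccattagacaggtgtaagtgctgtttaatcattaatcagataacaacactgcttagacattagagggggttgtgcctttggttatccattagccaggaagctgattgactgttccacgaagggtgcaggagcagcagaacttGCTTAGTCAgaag
Gpnmb: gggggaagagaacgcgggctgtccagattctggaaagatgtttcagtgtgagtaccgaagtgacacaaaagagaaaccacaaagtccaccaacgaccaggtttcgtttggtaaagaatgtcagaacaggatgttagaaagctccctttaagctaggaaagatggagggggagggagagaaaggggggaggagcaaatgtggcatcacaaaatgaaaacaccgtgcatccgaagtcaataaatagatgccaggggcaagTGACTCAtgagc

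The E-box occurred in Cadps2, from position -78 to -73 relative to the start, and in Bex1, where it spans the start. Of 32851 promoter windows of the same length, 6.57% held it. Akr1c19 held 1 match to the antioxidant response element core, on the other strand and after the start, which 11.1% of the windows held. The Gpnmb window held 1 AP-1 site, after the start, as did 7.23% of the windows. No AGGTCA was found in the 4 windows (15.0% of all windows held it), and none of the motifs was shared by the windows of Bex1 and Akr1c19.

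The RNA carried the signal of basal keratinocytes at both ages. Krt5, a keratin of the basal layer, averaged 12.68 in aged and 12.70 in young mice, and all 8 basal markers passed the dim limit. Of these, 2 were higher in aged mice (Itgb4 by 0.16 and Krt14 by 0.07) and 0 lower. Signal of other keratinocytes was present too. Of 8 hair follicle bulge markers 6 passed, Krt15 among them with 12.01 in aged and 12.14 in young mice, and Cd34 and Lgr5 did not. Among those 6, 3 were lower in aged mice (Postn by 0.76, Lhx2 by 0.29 and Krt15 by 0.14) and 1 was higher (Tcf7l1 by 0.15). Of 8 suprabasal markers 7 passed, and Krt10 averaged 11.69 in aged and 11.72 in young mice. Among those 7, 1 was lower in aged mice (Lor by 0.75) and 0 higher. All 5 T cell markers on the array passed the dim limit, and 3 of them were higher in aged mice (Thy1 by 0.65, Cd3e by 0.32 and Cd3g by 0.27). Their summed linear signal ran from 552 to 1642 in aged and from 278 to 1131 in young mice. Most of that sum is Thy1, which cells other than T cells also make and which averaged 9.74 in aged and 9.09 in young mice, and the other 4 markers averaged between 4.05 and 4.83. None was called with any of the 5 genes over aged mice, and their part in the rises was not tested. Of 4 sebaceous gland markers kept, 3 were higher in aged mice. Over all genes 9.89% were called higher and 8.73% lower in aged mice (limma, adjusted p under 0.05), and the median difference of all genes was -0.002 on the log2 scale. Array medians ran from 4.78 to 5.04. In bulk RNA, more cells of a type and more RNA per cell cannot be told apart.

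Cadps2 (chromosome 6, 23262773 to 23841175, GRCm38) had the largest difference between the ages. Its log2 signal averaged 6.86 ± 0.48 in aged mice and 4.04 ± 0.17 in young mice (SD, n = 24 each), which is 7.06 times as much signal in aged mice. At ZT0 the Cadps2 signal was 6.17, 6.98, 6.94 and 6.25 in aged mice, against 4.29, 3.98, 4.26 and 4.02 in young mice. At ZT4 the Cadps2 signal was 8.08, 7.53, 6.00 and 7.10 in aged mice, against 4.02, 4.01, 3.85 and 3.87 in young mice. Every aged mouse was above every young mouse at both times, and the widest range among aged mice was at ZT4. At ZT8 the Cadps2 signal was 6.81, 6.42, 6.66 and 6.56 in aged mice, against 4.10, 4.08, 4.08 and 3.82 in young mice. At ZT12 the Cadps2 signal was 6.62, 7.47, 6.68 and 6.86 in aged mice, against 4.19, 4.04, 4.02 and 3.74 in young mice. At ZT16 the Cadps2 signal was 7.40, 6.71, 7.39 and 6.45 in aged mice, against 4.40, 3.87, 4.23 and 3.80 in young mice. The young values ran from 3.74 to 4.40, near the dim limit, under which 7 of the 24 young arrays lay. At ZT20 the Cadps2 signal was 7.13, 6.51, 6.99 and 6.91 in aged mice, against 4.06, 3.93, 4.14 and 4.14 in young mice. The groups did not overlap at any of the 6 times. The difference ran from 2.45 at ZT0 to 3.24 at ZT4. In aged mice the time means in descending order were 7.18 ± 0.88 at ZT4, 6.99 ± 0.48 at ZT16, 6.91 ± 0.39 at ZT12, 6.89 ± 0.27 at ZT20, 6.62 ± 0.17 at ZT8 and 6.59 ± 0.44 at ZT0 (SD, n = 4). The mice of neighbouring times in that order overlapped.

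Zmynd15 (chromosome 11, 70459433 to 70466204) averaged 7.83 ± 0.42 in aged mice and 5.43 ± 0.26 in young mice (SD, n = 24 each), a ratio of 5.27. At ZT0 the Zmynd15 signal was 7.67, 7.77, 7.92 and 7.86 in aged mice, against 5.31, 4.96, 5.72 and 5.08 in young mice. At ZT4 the Zmynd15 signal was 8.57, 8.80, 8.03 and 8.20 in aged mice, against 5.88, 5.99, 5.24 and 5.49 in young mice. At ZT8 the Zmynd15 signal was 8.09, 8.18, 7.89 and 7.70 in aged mice, against 5.74, 5.45, 5.41 and 5.28 in young mice. All aged mice were above all young mice, and the 4 aged mice at ZT4 included the highest values of the series. At ZT12 the Zmynd15 signal was 7.76, 7.42, 8.10 and 7.29 in aged mice, against 5.89, 5.34, 5.31 and 5.59 in young mice. At ZT16 the Zmynd15 signal was 7.43, 7.85, 7.71 and 7.93 in aged mice, against 5.35, 5.28, 5.53 and 5.50 in young mice. At ZT20 the Zmynd15 signal was 7.13, 7.99, 7.79 and 6.88 in aged mice, against 5.31, 5.15, 5.46 and 5.15 in young mice. Again the ages did not overlap at any time, and the lowest aged value, 6.88 at ZT20, lay above the highest young value, 5.99 at ZT4. The difference ran from 2.11 at ZT12 to 2.75 at ZT4. The aged time means in descending order were 8.40 ± 0.35 at ZT4, 7.97 ± 0.21 at ZT8, 7.80 ± 0.11 at ZT0, 7.73 ± 0.22 at ZT16, 7.64 ± 0.36 at ZT12 and 7.45 ± 0.53 at ZT20 (SD, n = 4). The mice of neighbouring times in that order overlapped, ZT4 and ZT8 included.

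Bex1 (X chromosome, 136213972 to 136215513) differed most from mouse to mouse. It averaged 6.16 ± 1.93 in aged mice and 3.49 ± 0.32 in young mice (SD, n = 24 each), a ratio of 6.39. At ZT0 the Bex1 signal was 7.51, 3.08, 5.90 and 8.95 in aged mice, against 3.12, 3.16, 3.81 and 3.37 in young mice. At ZT4 the Bex1 signal was 8.48, 3.14, 6.85 and 3.55 in aged mice, against 3.69, 4.08, 3.50 and 3.23 in young mice. At these 2 times some aged mice had more than 5 log2 units more signal than others sampled at the same time, and 3 of the 8 were as low as young mice. At ZT8 the Bex1 signal was 7.36, 5.89, 7.40 and 7.67 in aged mice, against 3.27, 3.19, 3.00 and 3.55 in young mice. At ZT12 the Bex1 signal was 8.00, 7.59, 6.07 and 4.77 in aged mice, against 4.24, 3.56, 3.30 and 4.25 in young mice. All 8 aged mice at ZT8 and ZT12 were above the young mice of their time. At ZT16 the Bex1 signal was 3.22, 6.27, 4.45 and 8.59 in aged mice, against 3.41, 3.48, 3.41 and 3.49 in young mice. At ZT20 the Bex1 signal was 4.91, 3.44, 8.41 and 6.47 in aged mice, against 3.39, 3.46, 3.39 and 3.41 in young mice. The highest and lowest aged mouse differed by a factor of 58.7, the highest and lowest young mouse by 2.37. Of the 24 aged mice, 19 were above every young mouse, and the groups were apart at 2 of 6 times. The 5 other aged mice lay under the dim limit, as did 21 of the 24 young mice, so the young values of Bex1 and their small spread are close to what the array gives for dim probe sets. The difference ran from 1.88 at ZT4 to 3.83 at ZT8. The aged time means, from 7.08 ± 0.80 at ZT8 and 6.61 ± 1.48 at ZT12 through 6.36 ± 2.52 at ZT0, 5.81 ± 2.13 at ZT20 and 5.63 ± 2.33 at ZT16 to 5.50 ± 2.59 at ZT4 (SD, n = 4), have no neighbours that differ beyond their spread.

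Akr1c19 (chromosome 13, 4233503 to 4248361) averaged 6.12 ± 0.77 in aged mice and 4.58 ± 0.19 in young mice (SD, n = 24 each), a ratio of 2.91. At ZT0 the Akr1c19 signal was 7.28, 5.46, 5.95 and 7.41 in aged mice, against 4.54, 4.19, 4.39 and 4.42 in young mice. At ZT4 the Akr1c19 signal was 6.53, 5.10, 6.40 and 5.35 in aged mice, against 4.75, 4.85, 4.57 and 4.64 in young mice. At ZT8 the Akr1c19 signal was 6.51, 6.14, 6.23 and 6.50 in aged mice, against 4.85, 4.72, 4.55 and 4.83 in young mice. The aged mice at ZT8 were close together, and those at ZT0 and ZT4 were not. At ZT12 the Akr1c19 signal was 8.02, 6.56, 5.79 and 5.58 in aged mice, against 4.55, 4.67, 4.72 and 4.49 in young mice. At ZT16 the Akr1c19 signal was 4.78, 6.08, 5.53 and 6.67 in aged mice, against 4.38, 4.62, 4.69 and 4.94 in young mice. At ZT20 the Akr1c19 signal was 5.56, 5.33, 6.46 and 5.74 in aged mice, against 4.51, 4.23, 4.45 and 4.43 in young mice. The ages overlapped at ZT16 only, through 1 aged mouse at 4.78, which was the lowest of the 24. The difference ran from 1.11 at ZT16 to 2.14 at ZT0. Aged means were 6.52 ± 0.97 at ZT0, 6.49 ± 1.10 at ZT12, 6.34 ± 0.19 at ZT8, 5.84 ± 0.73 at ZT4, 5.77 ± 0.49 at ZT20 and 5.76 ± 0.80 at ZT16 (SD, n = 4), and neighbours in this order did not differ beyond their spread. No array of either age was under the dim limit.

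Gpnmb (chromosome 6, 49036518 to 49058182) averaged 7.78 ± 0.62 in aged mice and 6.32 ± 0.30 in young mice (SD, n = 24 each), a ratio of 2.75. At ZT0 the Gpnmb signal was 7.43, 7.32, 8.20 and 6.68 in aged mice, against 6.81, 6.29, 6.16 and 6.76 in young mice. At ZT4 the Gpnmb signal was 9.36, 8.70, 8.09 and 8.02 in aged mice, against 6.62, 6.86, 6.49 and 6.42 in young mice. At ZT8 the Gpnmb signal was 7.70, 8.11, 8.21 and 7.95 in aged mice, against 6.10, 6.25, 6.43 and 6.29 in young mice. The ages overlapped at ZT0, and at ZT4 the lowest aged mouse was well above the highest young one. At ZT12 the Gpnmb signal was 7.58, 7.45, 7.37 and 7.11 in aged mice, against 6.27, 6.31, 5.87 and 6.57 in young mice. At ZT16 the Gpnmb signal was 7.39, 8.24, 7.46 and 8.23 in aged mice, against 6.56, 6.46, 6.45 and 6.01 in young mice. At ZT20 the Gpnmb signal was 7.39, 8.15, 8.01 and 6.55 in aged mice, against 5.95, 5.88, 6.13 and 5.71 in young mice. At 5 of 6 times the groups were apart, and 22 of the 24 aged mice were above every young mouse. The difference ran from 0.90 at ZT0 to 1.95 at ZT4. Aged means were 8.54 ± 0.62 at ZT4, 7.99 ± 0.22 at ZT8, 7.83 ± 0.47 at ZT16, 7.53 ± 0.73 at ZT20, 7.41 ± 0.62 at ZT0 and 7.38 ± 0.20 at ZT12 (SD, n = 4), and mice of neighbouring times overlapped. A further probe set assigned to both Gpnmb and Wdr6 did not share the rise: it averaged 8.49 ± 0.22 in aged and 8.56 ± 0.25 in young mice, and was left out because it cannot be assigned to 1 gene.

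**Figure D1:**
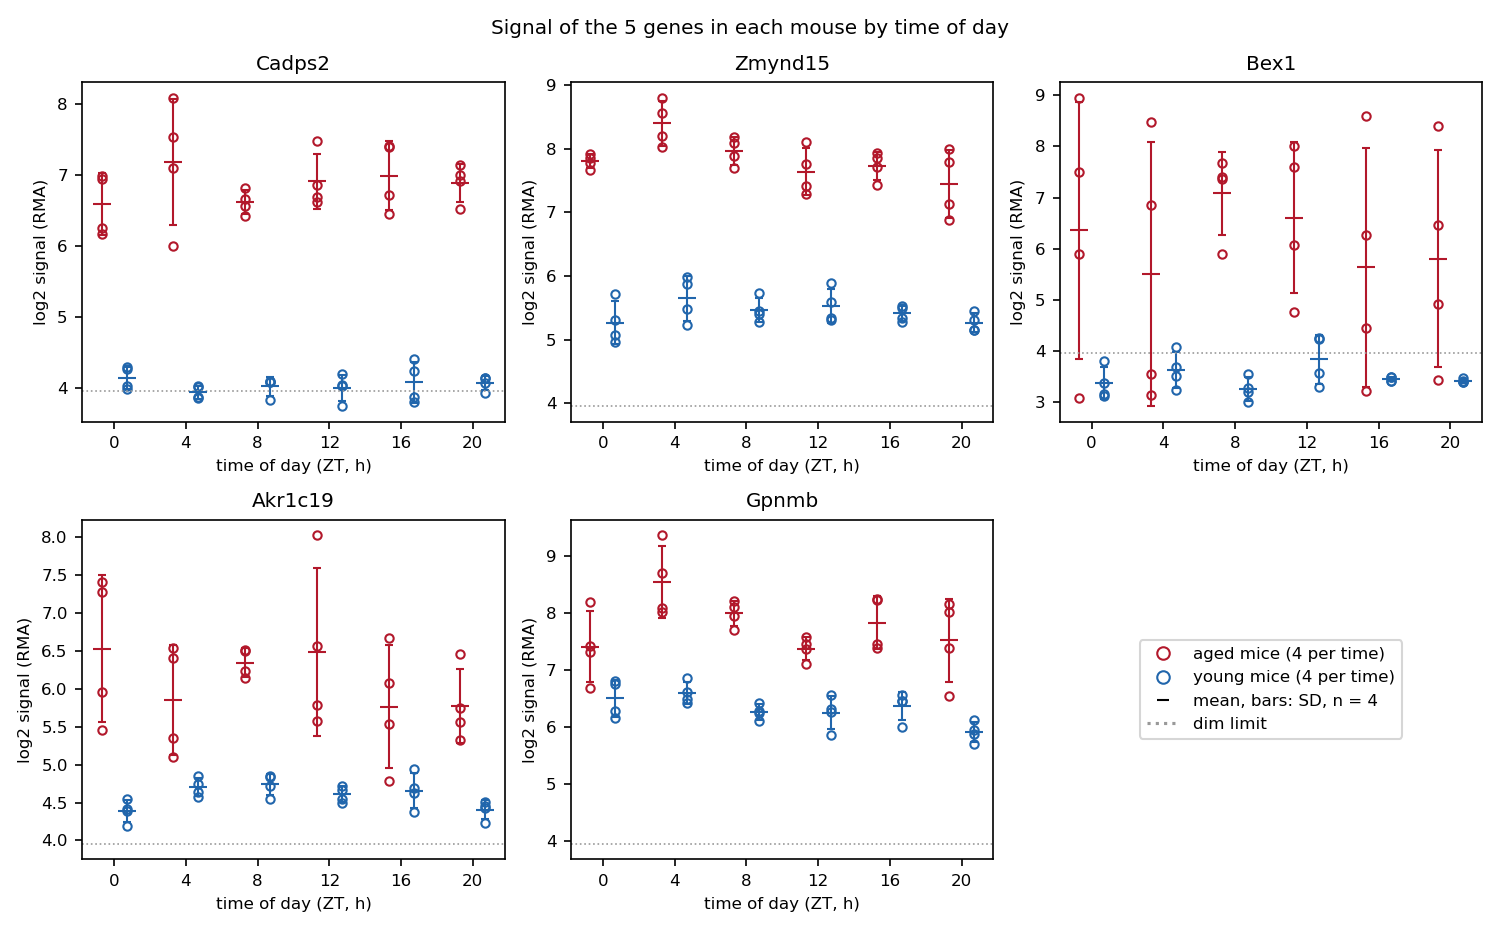
Log2 signal (vertical axis) of the 5 genes in each mouse by time of day in hours (horizontal axis), aged mice in red to the left of young mice in blue, with the mean and SD of 4 mice. Cadps2 and Zmynd15 are apart at every time, whereas 5 aged mice reach down to young levels for Bex1.

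Of all 12823 genes, 10 (0.078%) had every aged array above every young array, and Cadps2 and Zmynd15 are 2 of them. Since the rise chose the genes, nothing is read from that share.

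The daily course was not used to choose the genes. A 24 h cosine was fitted for each age, and an F test asked whether its amplitude was above 0, with p adjusted over all genes. In aged mice 1 of the 5 genes passed, against 1.36% of all genes: Zmynd15 had an amplitude of 0.35 ± 0.085 (SE) with a fitted peak at ZT5.13 (limma, adjusted p = 0.0496). That call is at the edge of the threshold and was lost when any 1 of 34 of the 48 arrays was left out, with adjusted p from 0.0273 to 0.151 over the 48 fits (limma). Gpnmb had a like amplitude, 0.34 ± 0.13 (SE), with a fitted peak at ZT5.43, and did not pass (limma, adjusted p = 0.385). Akr1c19, Bex1 and Cadps2 did not pass either (limma, adjusted p = 0.845, 0.868 and 0.989).

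Where the 6 times were fitted as separate levels in place of a cosine, Zmynd15 and Gpnmb both changed over the day in aged mice (limma, adjusted p = 0.0128 and 0.0134), and 8.36% of all genes did. Both had their highest aged mean at ZT4. In young mice none of the 5 passed with separate time levels, where 17.5% of all genes did. None passed the cosine test in young mice, where 6.27% of all genes did, and the lowest adjusted p was that of Zmynd15 (limma, adjusted p = 0.503, amplitude 0.15 ± 0.085). Each gene had 1 estimate of the spread for both ages, so a wide aged spread also enters the young tests. For Akr1c19 the mean distance from the group mean was 0.65 in aged and 0.12 in young mice. A fit to the young arrays alone was not run, so a young rhythm of such a gene may be missed. The difference of rhythm between the ages passed for none of the 5 and for 0 genes in all. At an unadjusted p under 0.05 limma gave 982 genes (7.66%), and with separate time levels it gave 332 after adjustment, none of them among the 5. Zmynd15 had a p for the difference of 0.722 after adjustment (limma), so its rhythm is not shown to differ between aged and young mice.

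The spread between mice was also not used to choose the genes. Each array's distance from the mean of its age and time was fitted with limma, a test of the Levene type. Akr1c19 passed with a wider spread in aged mice, and so did Bex1, where 10 of 12823 genes (0.078%) passed at the same threshold. For Bex1, 21 of 24 young arrays lay under the dim limit, so its pass is not read as a result, and its mean distances, 1.78 in aged and 0.21 in young mice, are a description. Akr1c19 lay above the dim limit on all 48 arrays, and its mean distance was 0.65 in aged and 0.12 in young mice (limma, adjusted p = 8.36e-04). Young Akr1c19 values were low as well, from 4.19 to 4.94 with a mean of 4.58, where array medians ran from 4.78 to 5.04. A low level can narrow the young spread, and the part of this in the Akr1c19 result was not tested. The genes beside Akr1c19 in order of p were Nppb, a natriuretic peptide gene, with 0.83 in aged and 0.16 in young mice (limma, adjusted p = 2.95e-04), and Akr1c12, a neighbour of Akr1c19, with 0.31 in aged and 0.089 in young mice (limma, adjusted p = 0.00155).

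Cadps2, Gpnmb and Zmynd15 did not pass the test of spread (limma, adjusted p = 0.105, 0.181 and 0.574). Distances from the group median gave an adjusted p of 0.00706 for Akr1c19 (limma), and 4 genes (0.0312%) in all with a wider spread. With a variance prior that follows the mean and resists outliers, Akr1c19 still passed and Bex1 did not (limma, adjusted p = 0.0643 for Bex1). On simulated data in which 50 of 12823 genes had a spread 3 times wider, the test recovered 34 and called 14 others, and the form with medians recovered 5 and called 1 other.

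Bex1 and Akr1c19 varied together among aged mice. With the mean of each time removed, Pearson's r over the 24 aged arrays was 0.88 and Spearman's rho 0.91 (permutation p = 1e-05 for each, two-sided, mice permuted within a time of day, the smallest value that 100000 permutations give). Over all genes Akr1c19 was the gene most like Bex1 (limma, adjusted p = 3.07e-04). Without the 2 arrays farthest from the Bex1 median r was 0.85. The 5 aged mice with the lowest Bex1 were also the 5 with the lowest Akr1c19: in aged ZT0 replicate 2, ZT4 replicates 2 and 4, ZT16 replicate 1 and ZT20 replicate 2, Akr1c19 was 5.46, 5.10, 5.35, 4.78 and 5.33. Over the 24 young arrays, 21 of which were under the dim limit for Bex1, r was 0.05 and rho 0.12 (permutation p = 0.783 and 0.61). The difference of r between the ages was not tested.

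Among the 9 other pairs of the 5 genes in aged mice the highest r was that of Zmynd15 and Gpnmb, 0.65 with a rho of 0.65 (permutation p = 0.00398 and 0.00576). It did not pass over all genes (limma, adjusted p = 0.239), and without the 2 arrays farthest from the Zmynd15 median r was 0.55. In young mice the same pair had an r of 0.10. The highest young r was that of Zmynd15 and Bex1, 0.62 with a rho of 0.60 (permutation p = 0.0195 and 0.0230). Next came Cadps2 and Zmynd15, 0.43 with a rho of 0.55 (permutation p = 0.0292 and 0.0108). Neither passed over all genes (limma, adjusted p = 0.316 and 0.528). Of the 24 young arrays 21 were under the dim limit for Bex1 and 7 for Cadps2. Cadps2 was called with none of the other 4 genes in aged mice, with r from -0.37 for Akr1c19 to 0.19 for Gpnmb (permutation p = 0.138 and 0.502). In all, 20 pairs were computed, 10 in each age.

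**Figure D2:**
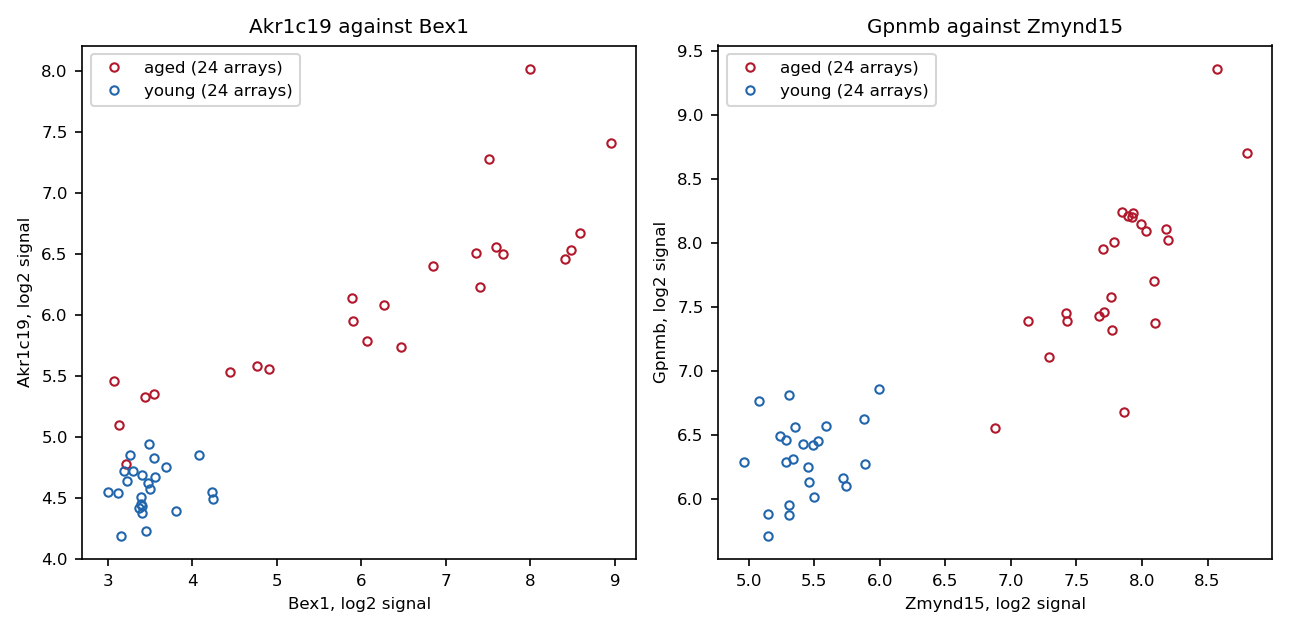
Log2 signal of Akr1c19 against Bex1 (left) and of Gpnmb against Zmynd15 (right), 1 point per mouse, aged in red and young in blue, time means not removed. Aged points run along a slope in the left panel, with r of 0.88 once time means are removed, and the young points form 1 group at low Bex1.

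Genes that varied with Bex1 over the aged mice numbered 11 (0.0858% of 12822 genes, limma, adjusted p under 0.05), all with a positive r. The 5 highest were Akr1c19 with 0.88, Akr1c18 with 0.86, Akr1c13 with 0.86, Mgst1 with 0.84 and Oxtr with 0.83. Akr1c18 encodes the mouse 20-alpha-hydroxysteroid dehydrogenase, which inactivates progesterone, Mgst1 a microsomal glutathione transferase and Oxtr the oxytocin receptor. The others were Akr1c12, Esr1 (oestrogen receptor alpha), Igfbp2 (a binding protein of insulin-like growth factors), Socs2 (a brake on growth hormone signalling), Dipk1a and Tgm2. Without the 2 arrays farthest from the Bex1 median 7 of the 11 were still called, and Esr1, Oxtr, Dipk1a and Tgm2 were not.

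With Akr1c19, 19 genes varied over the aged mice (0.148% of 12822 genes), again all with a positive r. The 5 highest were Akr1c12 with 0.94, Akr1c13 with 0.94, Plin2 with 0.89, Bex1 with 0.88 and Akr1c18 with 0.86. Plin2 encodes a coat protein of lipid droplets. The r of the 19 ran from 0.75 for Far2, a fatty acyl-CoA reductase, to 0.94 for Akr1c12. Without the 2 arrays farthest from the Akr1c19 median 33 genes were called, and only 7 of the 19 were among them: Akr1c12, Akr1c13, Akr1c18, Bex1, Igfbp2, Mgst1 and Plin2. Besides the pair itself, 7 genes were called with both Bex1 and Akr1c19. In young mice no gene was called with either of the 2 after adjustment (limma). The unadjusted p was under 0.05 for 664 genes with Bex1 and 678 with Akr1c19.

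One aged mouse, ZT16 replicate 1, had the lowest signal of the 24 for many of these genes at once. It read 4.78 for Akr1c19, 4.90 for Akr1c12, 4.84 for Akr1c13, 6.40 for Akr1c18, 5.79 for Mgst1, 8.19 for Plin2 and 5.35 for Esr1. At the other end, aged ZT0 replicate 4 was highest for Bex1 with 8.95, Akr1c18 with 10.44, Mgst1 with 8.93 and Plin2 with 9.68. Another mouse, aged ZT12 replicate 1, was highest for Akr1c19 with 8.02, Akr1c12 with 6.50, Akr1c13 with 7.05 and Oxtr with 5.81. Where arrays were weighted by their fit, its array had the lowest weight, 0.247. With each aged array left out in turn, r of Bex1 and Akr1c19 stayed between 0.86 and 0.95, and was highest without aged ZT12 replicate 1.

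**Figure D3:**
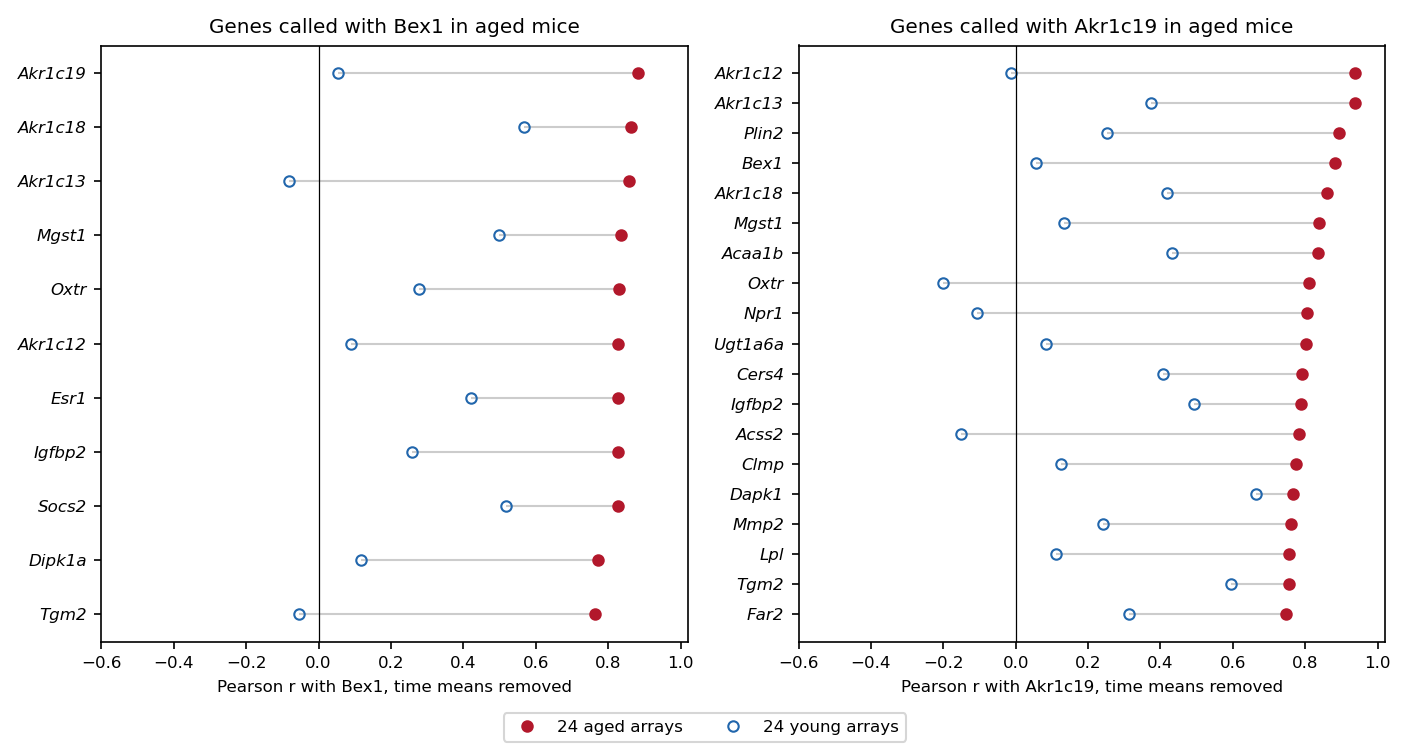
Pearson's r (horizontal axis, time means removed) with Bex1 (left) and with Akr1c19 (right) of each gene called with them in aged mice, over 24 aged arrays (filled red) and 24 young arrays (open blue). The genes were chosen on the aged values, from 0.75 for Far2 to 0.94 for Akr1c12.

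Mgst1 was on the list of sebaceous gland markers, so that list is given beside this pair. Of its 5 genes on the array 4 passed the dim limit and Elovl3 did not. Scd1, a fatty acid desaturase, was higher in aged mice by 0.45, Mgst1 by 0.96 and Pparg, a lipid-sensing nuclear receptor, by 0.48 (limma, adjusted p = 1.60e-06, 2.98e-06 and 4.88e-06), and Fabp5 did not pass (limma, adjusted p = 0.171). Their summed linear signal ran from 1967 to 4150 in aged mice and from 1511 to 3180 in young mice. Most of that sum is Scd1 and Fabp5, which averaged 10.17 and 10.30 in aged and 9.72 and 10.09 in young mice. Over the aged mice the median r of the 4 was 0.59 with Bex1 and 0.62 with Akr1c19, against -0.003 and 0.001 for all genes. With Cadps2 it was -0.24. Mgst1, which brought the list in, is part of these medians and was the only marker called with Bex1 or Akr1c19. Scd1, Pparg and Fabp5 were not called with Bex1 (limma, adjusted p = 0.804, 0.326 and 0.845). Nor were they with Akr1c19 (limma, adjusted p = 0.497, 0.175 and 0.539). The part of sebaceous gland cells in these values was not tested.

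For Zmynd15, 7 genes were called over the aged mice (0.0546% of 12822 genes). Matn2, a matrix protein of the matrilin family, had an r of 0.81, Kif26b 0.81, Tpm2, a tropomyosin, 0.79, Postn, the matrix protein periostin, 0.78, Krt6a, a keratin of activated epidermis, 0.78 and Stard13 0.77. Pdpn, podoplanin, had -0.76. All 7 calls were lost without the 2 arrays farthest from the Zmynd15 median, and without aged ZT4 replicate 2 the count was 0. Mfhas1 and Fam168a, which were also among the 5 genes of highest r, did not pass (limma, adjusted p = 0.0893 and 0.0571).

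No gene was called with Gpnmb or with Cadps2 over aged mice after adjustment (limma, 0 of 12822). The unadjusted p was under 0.05 for 1188 genes with Gpnmb and 497 with Cadps2. The genes most like Gpnmb by r, with predicted genes and clone names passed over, were Stard13 with 0.77, Ccdc71l with 0.76, Nppb with 0.75, Gprc5a with 0.74 and Ccdc183 with 0.73. Of these 5, Stard13, Nppb and Gprc5a were also higher in aged mice, by 0.76, 1.43 and 0.71 (limma, adjusted p = 9.13e-05, 1.68e-05 and 1.93e-04). The genes most like Cadps2 were Ndfip2 with 0.76, Tpcn2 with 0.72, Havcr1 with 0.72, Reep1 with 0.71 and Smndc1 with 0.68, and none of them differed in level between the ages after adjustment. In young mice 1 gene, Hlcs, was called with Cadps2 (0.0078% of genes). At simulated correlations of 0.85 the test recovered 13 of 50 genes, so a gene not called may still vary with a member.

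The 3 nearest kept genes on each side of each member, some of them far from it, were then compared between the ages. Around Akr1c19 the 3 nearest members of the Akr1c cluster were higher in aged mice too. Akr1c18 averaged 9.15 in aged and 7.93 in young mice, a difference of 1.22 ± 0.19 (SE, limma, adjusted p = 5.82e-06). Akr1c13 averaged 5.93 in aged and 4.62 in young mice, a difference of 1.31 ± 0.10 (SE, limma, adjusted p = 1.04e-13), and Akr1c12 averaged 5.63 in aged and 4.75 in young mice, a difference of 0.87 ± 0.077 (SE, limma, adjusted p = 3.15e-12). These 4 genes lie between 4132615 and 4279399 of chromosome 13. The outer neighbours Ucn3, Akr1e1 and Klf6, which lie 288154, 342762 and 1613128 bases from Akr1c19, did not pass (limma, adjusted p = 0.376, 0.265 and 0.0605). The 1C genes are near copies of each other, so whether their probes bind one another's transcripts bears on all 4, and it was not tested. Of the 8 kept aldo-keto reductases other than Akr1c19, 4 were higher in aged mice, the fourth being Akr1b8 with 0.81 ± 0.088 (SE), and none was lower, against 9.89% and 8.73% of all genes. Akr1c14, Akr1c20, Akr1c6 and Akr1d1 were under the dim limit. Over the aged mice Akr1b8 had an r of -0.12 with Akr1c19.

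The relatives around Bex1 were not called. Bex2, Bex4, Tceal8, Tceal9, Bex3 and Tceal3, which surround it on the X chromosome, differed by -0.06 to 0.05 between aged and young mice, and none passed (limma, adjusted p from 0.363 to 0.753). Of the 9 kept genes of the BEX and TCEAL list 0 were called higher and 0 lower, against 9.89% and 8.73% of all genes. None of the 6 neighbours was called with Bex1 over aged mice, where r ran from -0.06 for Bex3 to 0.42 for Tceal3.

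Near Zmynd15, Cxcl16, a chemokine gene whose span overlaps that of Zmynd15, was higher in aged mice by 0.27 ± 0.083 (SE, limma, adjusted p = 0.0166), and Med11, a Mediator subunit, by 0.20 ± 0.063 (SE, limma, adjusted p = 0.0193). Arrb2, Tm4sf5, Psmb6 and Pld2 did not pass. Over all genes 9.89% were called higher and 8.73% lower in aged mice.

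The kept genes nearest to Cadps2 lay from 209857 (Ptprz1) to 1827348 bases (Gpr37) away. Among them Wasl, an activator of actin assembly 772635 bases away, was higher in aged mice by 0.32 ± 0.065 (SE, limma, adjusted p = 2.80e-04). Wnt16, a Wnt ligand 964251 bases away, fell by 0.54 ± 0.12 on the log2 scale (SE, limma, adjusted p = 0.00104). Of all genes 9.89% were called higher and 8.73% lower in aged mice. Fam3c, Ptprz1, Ndufa5 and Gpr37 did not pass. Beside Gpnmb, Tmem176a, Tmem176b and Igf2bp3 were higher in aged mice by 0.41, 0.30 and 0.42 (limma, adjusted p = 4.23e-05, 1.86e-04 and 0.00445), and Doxl1, Malsu1 and Tra2a did not pass.

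**Figure D4:**
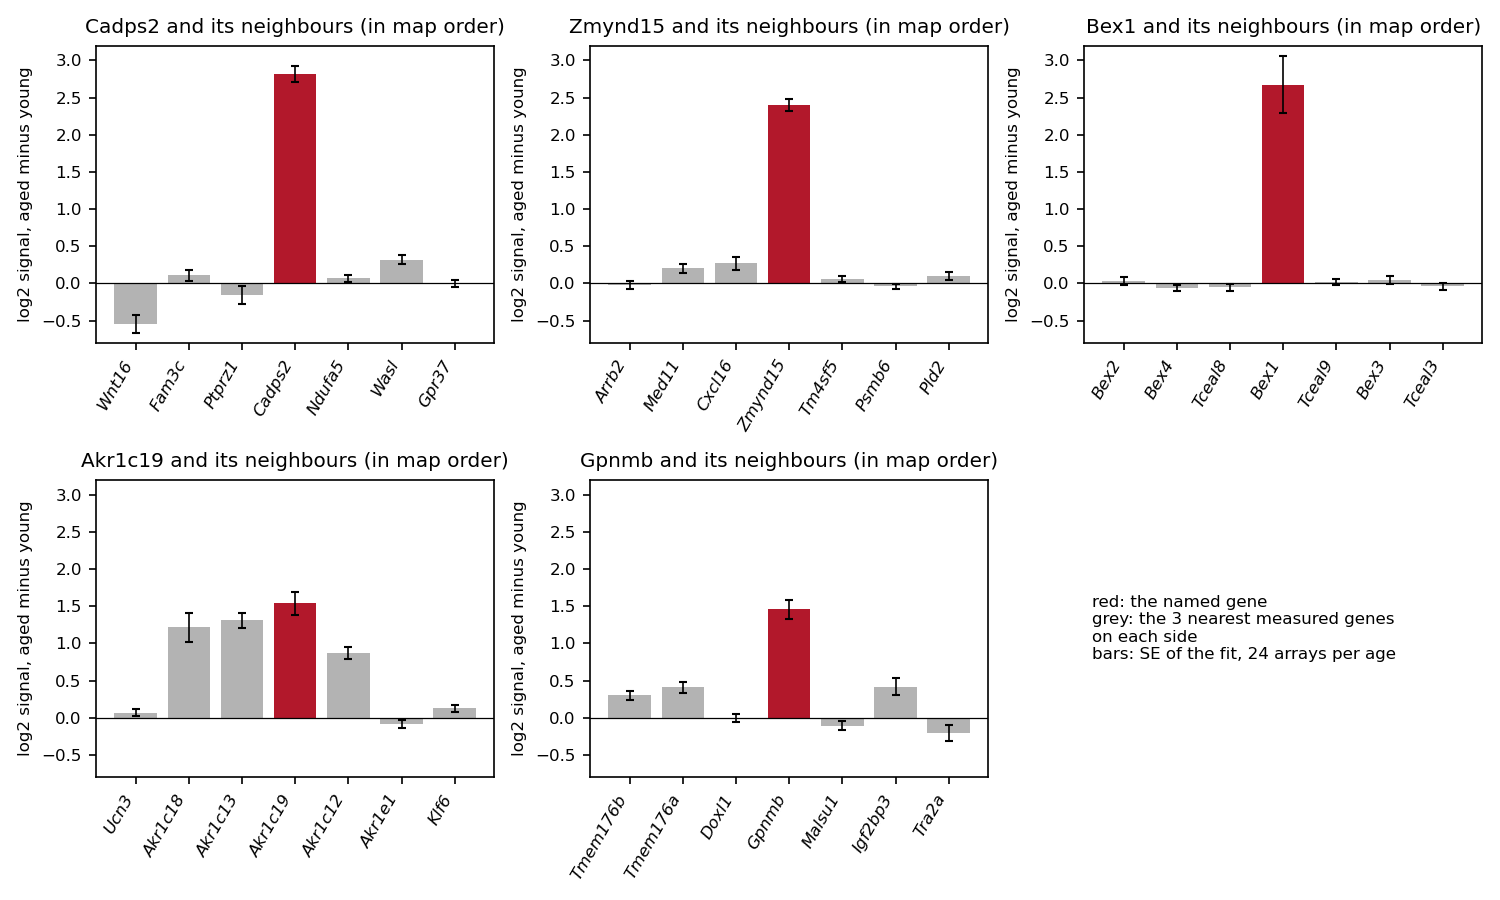
Aged minus young log2 signal (vertical axis) of each of the 5 genes (red) and of the 3 nearest kept genes on each side of it (grey), in map order, with the SE of the fit over 24 arrays per age. The Akr1c genes beside Akr1c19 are raised with it, by 0.87 to 1.31, and the relatives beside Bex1 lie near 0.

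Genes that act in vesicle release, as Cadps2 does, were then read against all genes, of which 9.89% were higher and 8.73% lower in aged mice. Of 26 kept genes of that list 2 were higher and 3 lower, a share near that of all genes, with a median difference of -0.003. Unc13d, a priming factor of granule release, was higher by 0.34, and Cpe, a processing enzyme of prohormones, by 0.38 (limma, adjusted p = 9.79e-05 and 0.00812). The SNAREs Stx1a and Vamp8 fell by 0.22 and 0.14 and the Rab27 effector Sytl2 fell by 0.26 on the log2 scale (limma, adjusted p = 0.0225, 0.0206 and 0.00213). Cadps, the nearest relative of Cadps2, was under the dim limit. Of the 4 Merkel cell markers kept, cells of the epidermis that hold dense-core vesicles, 0 were higher and 1 lower in aged mice, and Atoh1, Cck, Insm1, Krt20 and Sox2 were under the dim limit. Their summed signal ran from 62.7 to 89.0 in aged mice and from 65.5 to 99.4 in young mice.

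The genes that Zmynd15 is grouped with were read against the same shares of all genes, 9.89% higher and 8.73% lower. Of 16 kept genes with a MYND zinc finger 1 was higher (Egln1, an oxygen-sensing hydroxylase, by 0.20) and 1 lower (Ankmy2, which fell by 0.27). Of 6 kept spermatid genes none was called in either direction, and Acr, Acrv1, Akap4, Crem, Odf1 and Zpbp were under the dim limit.

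Gpnmb was set beside the genes of the compartments and cells it is known from, again with 9.89% of all genes higher and 8.73% lower. Of 24 kept genes of the lysosome and of MITF and TFE targets, 1 was higher (Hexa, a lysosomal hexosaminidase, by 0.38) and 1 lower (Flcn, a regulator of TFE factors, which fell by 0.21). Of 8 partner genes of the Gpnmb protein none was called. Of 4 melanocyte markers kept none was called, and Dct, Kit, Mlana, Oca2, Tyr and Tyrp1 were under the dim limit. The summed melanocyte signal ran from 281 to 455 in aged mice and from 249 to 463 in young mice. Of the 6 kept markers of macrophages and Langerhans cells 1 was higher, Epcam by 0.18, and Adgre1, Cd14, Cd207, Itgam, Lyz2, Mrc1, Ptprc and Trem2 were under the dim limit. Their summed signal ran from 1406 to 2242 in aged mice and from 1272 to 1847 in young mice. Most of that sum is Epcam, which epithelial cells also make and which averaged 10.39 in aged and 10.21 in young mice, and of the other 5 markers none was called. The median r of the 6 with Gpnmb over aged mice was 0.30.

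The list of NRF2 targets and antioxidant genes gave 2 higher and 2 lower of 16 kept, against 9.89% and 8.73% of all genes, with a median difference of -0.04. Srxn1, which repairs oxidised peroxiredoxins, was higher in aged mice by 0.85 and Gsr, glutathione reductase, by 0.24 (limma, adjusted p = 1.25e-04 and 0.00364). Me1 and Gstm1 fell by 0.21 and 0.22 on the log2 scale (limma, adjusted p = 0.003 and 0.0137). Over the aged mice the median r of these 16 genes with Akr1c19 was -0.10.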

How the data were processed

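RNA of epidermal stem cells from 48 mice was measured on 1-colour arrays. The deposited values are log2 probe set signals that the authors made with RMA, per the submitters' processing notes. Joint normalisation of all arrays is not stated in the labels. Of 45141 probe sets 28898 have 1 symbol in the probe table, 551 several and 15692 none. Of each of 17097 genes the probe set of highest mean was used, and the lowest 25% of these means (under 3.96) were left out.

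Values were fitted as deposited with limma 3.58.1 in R 4.3.3, with an age mean and a 24 h cosine per age. All 48 arrays shared 1 estimate of the spread per gene. The Benjamini-Hochberg adjustment took in all 12823 genes. Spread was tested on absolute deviations from the mean of age and time, scaled for 4 mice. Relations to a member were fitted per age with time of day as a factor. Permutation p-values used Python 3.11.15 and scipy 1.17.1. Each of the 5 genes has 1 single-symbol probe set, so a fit of all such probe sets uses the same values for them. With p adjusted over all these probe sets, the Zmynd15 rhythm in aged mice had an adjusted p of 0.0637 (limma). The tests of level, spread, relation and rhythm in aged mice were tested on simulated data. There 38 of 50 rhythms of amplitude 0.35 were recovered, and 7 other genes were called rhythmic.

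The 5 genes, the gene lists and the tests were chosen with earlier results of these data known. Beside the members, the text names for each the 5 genes of highest r in aged mice (predicted genes and clone names passed over), the 3 nearest kept genes on each side and up to 4 genes of a list by smallest p; the genes called with a member, the extremes of rank and spread, and markers under the dim limit were named after their values were seen. Averaged over pairs of arrays from different groups, residuals correlated by -0.000737 for arrays of one replicate number and 0.000912 for others. These means show no pairing of mice by number, and cannot show one limited to some arrays or genes. The number of arrays limits the precision.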

Additional observations from a re-analysis of the deposited data

Results flagged for a closer look

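One group of 4 mice held an array far from the others for a member. Among the young mice at ZT8, replicate 4 had the lowest Cadps2 signal, 3.82, and the 3 others lay between 4.08 and 4.10. The gap was 0.931 of the range of the group, above Dixon's critical value for 4 samples. In all, 60 groups were examined (5 genes, 2 ages, 6 times), and chance alone flags about 1 in 20. The value is under the dim limit of 3.96.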

How the results depend on the processing

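The level differences of the 5 genes kept their direction under every alternative that gave a value. Since the rise chose the genes, nothing is read from that. Leaving out the lower 50% of gene means removed Cadps2, Bex1 and Akr1c19. The replicate block gave 0 members with a rhythm in aged mice (Zmynd15, adjusted p = 0.0513, limma) and 8 genes with a changed spread, and moved the counts for Zmynd15, Gpnmb and Cadps2 given below; it changed no other call of the 5 genes. Dim signal limits Bex1 (21 young arrays under the limit). Members called rhythmic in aged mice were 1, with 0 to 1 when an array was left out, 0 with no dim filter, median centring, cyclic loess, array weights, trend and robust or the block, and 2 with time as a factor. Genes called rhythmic in aged mice were 174 (116 to 314 leaving out an array, highest without aged ZT12 replicate 1; 378 with array weights, 438 without the 4 arrays of lowest weight, 1072 with time as a factor). In young mice they were 804 (560 to 1188; 1772 with weights, 2242 with time as a factor), and for the difference 0 (0 to 4; 4 with weights, 332 with time as a factor). Genes with a changed spread were 14 (5 to 29; 3 without the lower 50% of gene means, 30 with cyclic loess, 5 by medians, 39 on log2 deviations). Members with a changed spread were 2, or 1 with trend and robust, and the pass of Bex1 is not read as a result. With a change of at least 1.5 times 140 genes were higher and 30 lower, in place of 1268 and 1119. Genes called with a member in aged mice were 7 for Zmynd15 (0 to 22; 38 with time means kept, 0 without the 2 farthest arrays, 0 with the block), 19 for Akr1c19 (11 to 30; 29 with time means kept, 33 without the 2 farthest), 0 for Gpnmb (0 to 2; 30 with time means kept, 1 without the 2 farthest, 1 with the block), 0 for Cadps2 (0 to 1) and 11 for Bex1 (8 to 14). In young mice Cadps2 had 1 (0 to 2; 0 under the 3 other alternatives), Zmynd15 0 (0 to 1; 60 without the 2 farthest) and Bex1 0 (0 to 1). The causes were not tested.

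Weak correlations changed sign. In aged mice r of Cadps2 and Zmynd15 was 0.00 (-0.270 to 0.11 leaving out an array; -0.31 without the 2 farthest arrays, -0.0666 with the block), of Cadps2 and Gpnmb 0.19 (-0.0301 to 0.280; -0.12 without the 2 farthest), of Bex1 and Zmynd15 0.03 (-0.0719 to 0.206; -0.0108 with time means kept), of Akr1c19 and Zmynd15 0.08 (-0.0162 to 0.190; -0.0841 without the 2 farthest) and of Akr1c19 and Gpnmb 0.15 (0.05 to 0.30; -0.0460 with time means kept). In young mice it was -0.06 for Bex1 and Cadps2 (-0.19 to 0.11; 0.00433 without the 2 farthest, 0.00736 with the block), -0.16 for Akr1c19 and Gpnmb (-0.292 to 0.0645; 0.108 with time means kept), -0.10 for Akr1c19 and Cadps2 (-0.215 to 0.219; 0.0490 without the 2 farthest), 0.05 for Akr1c19 and Bex1 (-0.0638 to 0.190; -0.0407 without the 2 farthest), 0.10 for Gpnmb and Zmynd15 (-0.0125 to 0.367; -0.0481 without the 2 farthest) and 0.16 for Cadps2 and Gpnmb (-0.0232 to 0.356).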
